A study of Mus musculus with 367 samples.

Results

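The genes that load and present peptides on MHC class II molecules were followed in single wound cells of the mouse. They are Cd74, H2-Aa, H2-Ab1, H2-Eb1, H2-DMa, H2-DMb1 and Ciita. These 7 genes, of 50600 in the files, were chosen by name and all 7 were found. The cells came from Sm22-Cre;tdTomato mice of mixed background, 3 to 8 weeks old, with a square excisional back wound of 1.5 cm to a side. They were sorted as viable cells with a high tdTomato signal on post-wounding day 12 (PWD12, 3 captures, 159 cells), 15 (PWD15, 2 captures, 117 cells) and 21 (PWD21, 2 captures, 91 cells). All cells carry the Cre driver and the reporter, the Sm22 (Tagln) promoter drives the Cre, and wound tissue of 2 to 3 animals was pooled at each time point. The sources do not tie captures to animals, so the p-values measure only the spread between captures, which may be technical.

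The values are FPKM, fragments per kilobase of transcript scaled to sequencing depth, from full-length RNA of cells captured on a microfluidic chip. After a filter on depth, gene number and mitochondrial RNA, 292 of 367 cells remained. A capture had a median of 948219 to 2341589 estimated fragments and of 4845 to 6233 genes per cell. A cell was called a matrix cell with Col1a1 of at least 1000 FPKM, Rgs5 below 100 and Tyrobp below 50. It was called a mural cell with Rgs5 of at least 500 and Tyrobp below 50, and a myeloid cell with Tyrobp of at least 500. This gave 198 matrix, 57 mural and 26 myeloid cells, and 11 kept cells were none of these. The lowest Tyrobp value of a myeloid cell was 1343 FPKM, the highest below the limit was 207 FPKM, and 2 kept cells lay between 50 and 500. Tyrobp, which chose the myeloid cells, is left out of this check. The 12 other myeloid markers were all detected in at least 50% of the myeloid cells, and their sum ran from 4378 to 48675 FPKM there, from 0 to 1627 in matrix cells and from 0 to 749 in mural cells. Of the 26 myeloid cells, 4 also had Col1a1 of at least 1000 FPKM. The myeloid cells were found in 6 of the 7 captures, with 2, 11 and 1 at PWD12, 0 and 4 at PWD15 and 5 and 3 at PWD21.

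In GRCm38 the genes H2-DMa, H2-DMb1, H2-Ab1, H2-Aa and H2-Eb1 lie in that order in the MHC region of chromosome 17, between chr17:34119541 at the start of H2-DMa and 34316674 at the end of H2-Eb1. Ciita lies at chr16:10480059-10528418 on the plus strand. Cd74 lies outside the MHC, on chromosome 18.

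MHC class II molecules carry peptides from endocytosed proteins to the surface of antigen-presenting cells, such as dendritic cells, macrophages and B cells, where CD4 T cells read them. The alpha and beta chains are assembled on the invariant chain, which is then cut by lysosomal proteases and leaves a fragment that the H2-M dimer exchanges for peptide. Ciita is the coactivator that turns on these genes together, through factors bound to the X and Y boxes of their promoters.

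The promoter letters of 3 members are shown because H2-Aa and H2-Eb1 were high in the same myeloid cells while H2-DMb1 followed them less closely. The RefSeq promoter table (GRCm38.p6, 250 bases before to 50 after a start) held 5 promoters of 4 members, namely H2-DMa, H2-DMb1, H2-Aa and H2-Eb1. The stretch from 110 to 30 bases before the start is printed 5′ to 3′ on the strand of the gene, for H2-DMb1 at chr17:34153081-34153161 on the plus strand, for H2-Aa at chr17:34287853-34287933 on the minus strand and for H2-Eb1 at chr17:34305757-34305837 on the plus strand. Capitals mark matches to the X box core AGNAACNGA and to the CCAAT box of the Y element, searched on both strands, with ATTGG as the reverse of CCAAT.
H2-DMb1: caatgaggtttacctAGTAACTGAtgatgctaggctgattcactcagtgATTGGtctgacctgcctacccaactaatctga
H2-Aa: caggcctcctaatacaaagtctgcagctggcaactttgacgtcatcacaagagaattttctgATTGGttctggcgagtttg
H2-Eb1: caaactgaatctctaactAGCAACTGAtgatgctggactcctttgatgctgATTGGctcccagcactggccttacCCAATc
The X box core began 95 bases before the start of H2-DMb1 and 92 bases before that of H2-Eb1. It was followed by ATTGG after 25 and 24 bases, so the pair stood in the same order and nearly the same spacing in both promoters. In H2-Aa the letters ATTGG began 48 bases before the start, and no match to the X box core as spelled here was in the window. Of all 32851 promoters in the table, 37.4% held CCAAT, 5.35% the X box core and 1.98% both. Of the 2 H2-DMa promoters, 1 had no match and the other had ATTGG 198 bases before the start.

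Class II RNA was concentrated in the myeloid cells. They held 96.0% of the summed FPKM of Cd74, H2-Aa, H2-Ab1 and H2-Eb1 over all kept cells, while the 198 matrix cells held 3.61% and the 57 mural cells 0.131%. Within the myeloid cells the sum was very uneven, since 53.7% of it came from 1 cell and 86.7% from 3 cells. These 4 genes, the invariant chain and the classical alpha and beta chains, are called the chain genes here, and their sum in a cell the chain sum.

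**Figure D1:**
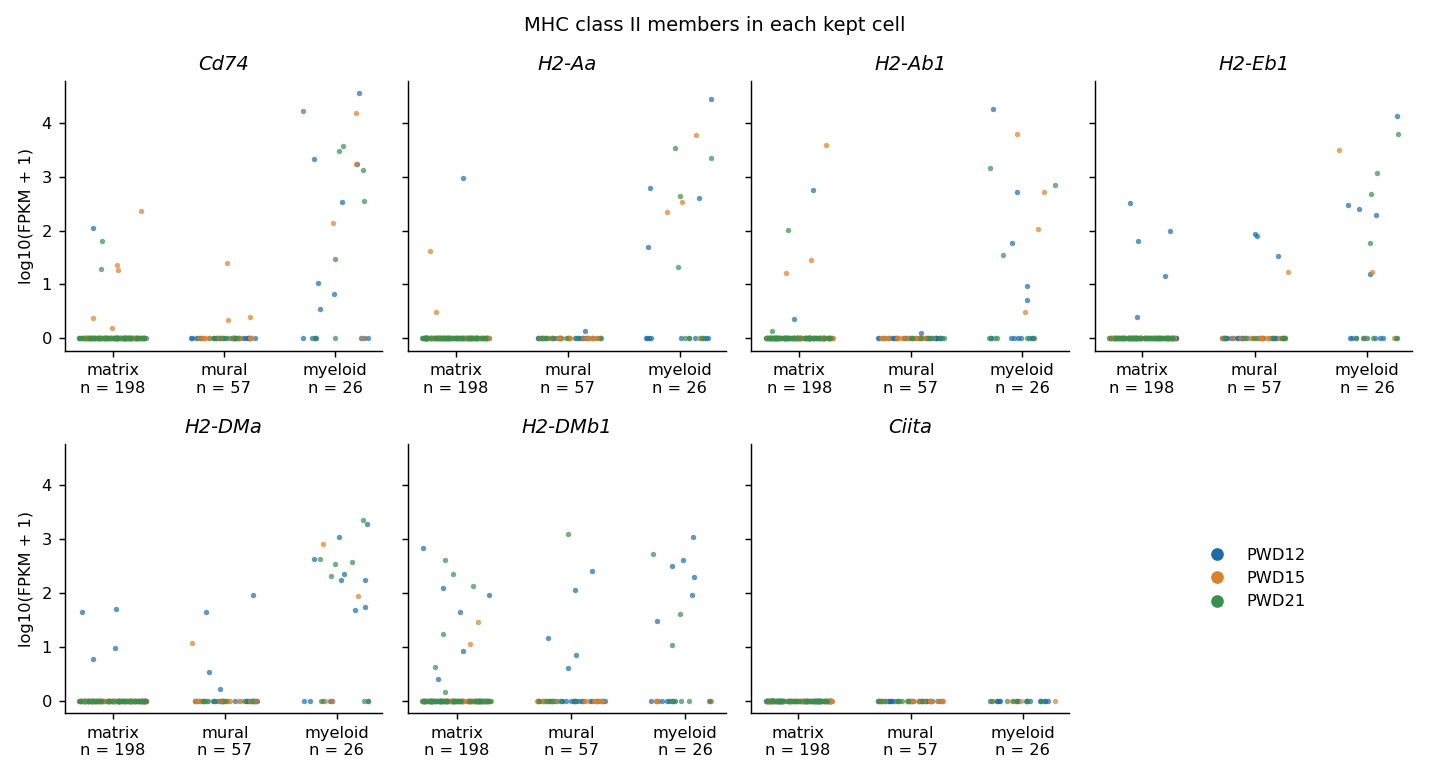
Each point is 1 of the kept matrix, mural or myeloid cells, coloured by day, with log10(FPKM + 1) on the y axis and the kind of cell on the x axis. Cd74 reaches 34954 FPKM in myeloid cells and 227 FPKM in matrix cells, and Ciita stays at 0 in all 26 myeloid cells.

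Cd74 encodes the invariant chain. It was above 0 FPKM in 16 of 26 myeloid cells (61.5%, exact 95% interval 40.6% to 79.8%), in 8 of 198 matrix cells (4.04%, 1.76% to 7.81%) and in 3 of 57 mural cells (5.26%, 1.1% to 14.6%). Intervals over cells cover counting error only. In the captures with at least 3 myeloid cells their mean Cd74 was 3366 FPKM in PWD12 capture 2, 4303 in PWD15 capture 2, 1343 in PWD21 capture 1 and 5953 in PWD21 capture 2. Matrix cells of the same captures had means of 0, 11.3, 3.50 and 0.531 FPKM. The capture means of the kinds thus did not overlap, and how many of all genes share this was not counted. Single cells of the kinds did overlap, since 10 of 26 myeloid cells were at 0 and a matrix cell reached 227 FPKM.

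H2-Aa and H2-Ab1 encode the alpha and beta chains of the I-A molecule. H2-Aa was detected in 11 of 26 myeloid cells, 3 of 198 matrix cells and 1 of 57 mural cells. Its myeloid capture means were 2525, 1585, 452 and 1252 FPKM in the same order of captures, against 0, 1.94, 0 and 0 in the matrix cells. H2-Ab1 was detected in 12 of 26 myeloid, 7 of 198 matrix and 1 of 57 mural cells. Its myeloid means were 1659, 1726, 140 and 497 FPKM against 0.0508, 0, 0.0206 and 2.93 in matrix cells. For both chains every myeloid mean lay above every matrix mean of these 4 captures, and how many of all genes share this was not counted. PWD15 capture 1, which had no myeloid cell, had a matrix mean of H2-Ab1 of 78.8 FPKM, and 1 cell at 3894 FPKM gave nearly all of it.

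H2-Eb1 encodes the beta chain of the I-E molecule. It was detected in 11 of 26 myeloid, 5 of 198 matrix and 4 of 57 mural cells, with myeloid capture means of 1265, 788, 105 and 2437 FPKM. Matrix cells of these captures were at 2.39 FPKM in PWD12 capture 2 and at 0 in the other 3. The alpha chain of I-E, H2-Ea, which GENCODE lists as the pseudogene H2-Ea-ps, was at 0 FPKM in all matrix, mural and myeloid cells. The related chain gene H2-Eb2 was at 0 in the myeloid cells and did not exceed 0.47 FPKM in matrix and mural cells.

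H2-DMa and H2-DMb1 encode subunits of H2-M, the dimer that edits the peptide. H2-DMa was detected in 15 of 26 myeloid cells, always at 47.6 FPKM or more, in 4 of 198 matrix cells and in 5 of 57 mural cells. Its myeloid capture means were 352, 224, 110 and 1022 FPKM, against 0.326, 0, 0 and 0 in matrix cells. H2-DMb1 was spread over all kinds, in 9 of 26 myeloid, 14 of 198 matrix and 6 of 57 mural cells. Its myeloid means were 157, 0, 116 and 3.34 FPKM and overlapped the matrix means of 4.82, 0.47, 0 and 23.6 FPKM. Its near-identical copy H2-DMb2 was seen in 60 of 198 matrix, 28 of 57 mural and 16 of 26 myeloid cells, mostly at low values. RSEM divides reads that both copies share, so the values of the pair are uncertain.

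Ciita, the class II transactivator, was at 0 in all 26 myeloid and all 57 mural cells. That allows up to 11.5% of myeloid and 5.26% of mural cells with a fragment of it, which does not bound the share of cells that hold its RNA below detection. A single matrix cell of PWD21 capture 1 had 0.0700 FPKM, about 1 fragment. Over the 26 myeloid cells together, 3 fragments of its longest transcript (6007 bases) correspond to 0.0105 FPKM. Myeloid cells with a chain sum of 1000 FPKM or more thus had no detectable Ciita at this depth.

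Myeloid cells were compared with matrix cells in the 4 captures holding 3 or more of each, on log2(mean FPKM + 1) with the capture as a block. With limma, 861 of 13059 genes (6.59%) were past an adjusted p of 0.05, 1.69% of all genes tested being called higher and 4.9% lower in myeloid cells. Of the 7 members 6 were tested, and 5 were called higher. H2-Aa, H2-Ab1, H2-Eb1 and H2-DMa reached the mean of 1 FPKM that a test required only through their myeloid values. The filter thus favoured a higher myeloid mean, and the count among those tested is only a description. Cd74 differed by 10.08 on the log2 scale (SE 0.94, limma adjusted p = 0.000228) and H2-Aa by 9.87 (SE 0.99, limma adjusted p = 0.000390). H2-Eb1 differed by 9.04 (SE 1.09, limma adjusted p = 0.00129), H2-Ab1 by 8.87 (SE 1.11, limma adjusted p = 0.00160) and H2-DMa by 8.17 (SE 1.05, limma adjusted p = 0.00192). Each of the 5 was higher in the myeloid cells of 4 of 4 captures. Called differences of this size nearly fix that, so it adds no support, and the share of all genes doing so was not counted. The difference of H2-DMb1 was 2.15 (SE 1.46, 95% interval -1.04 to 5.33, limma adjusted p = 0.359).

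The median difference over all genes tested was -1.0 on the log2 scale. Where matrix cells were at 0 the size of a difference depends on the pseudocount, and for Cd74 it ran from 6.84 to 11.34 over the alternative settings. Of these calls, that of H2-Aa was held without the filter on low values (24111 genes tested, limma adjusted p = 0.0291), while those of the other 4 were lost, with limma adjusted p from 0.0657 for H2-DMa to 0.0997 for H2-Ab1. The highest myeloid cell moved the differences but no call. Without it Cd74 differed by 9.08 and H2-Ab1 by 6.49 (limma adjusted p = 0.0295), an alternative chosen after the values were seen.

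**Figure D2:**
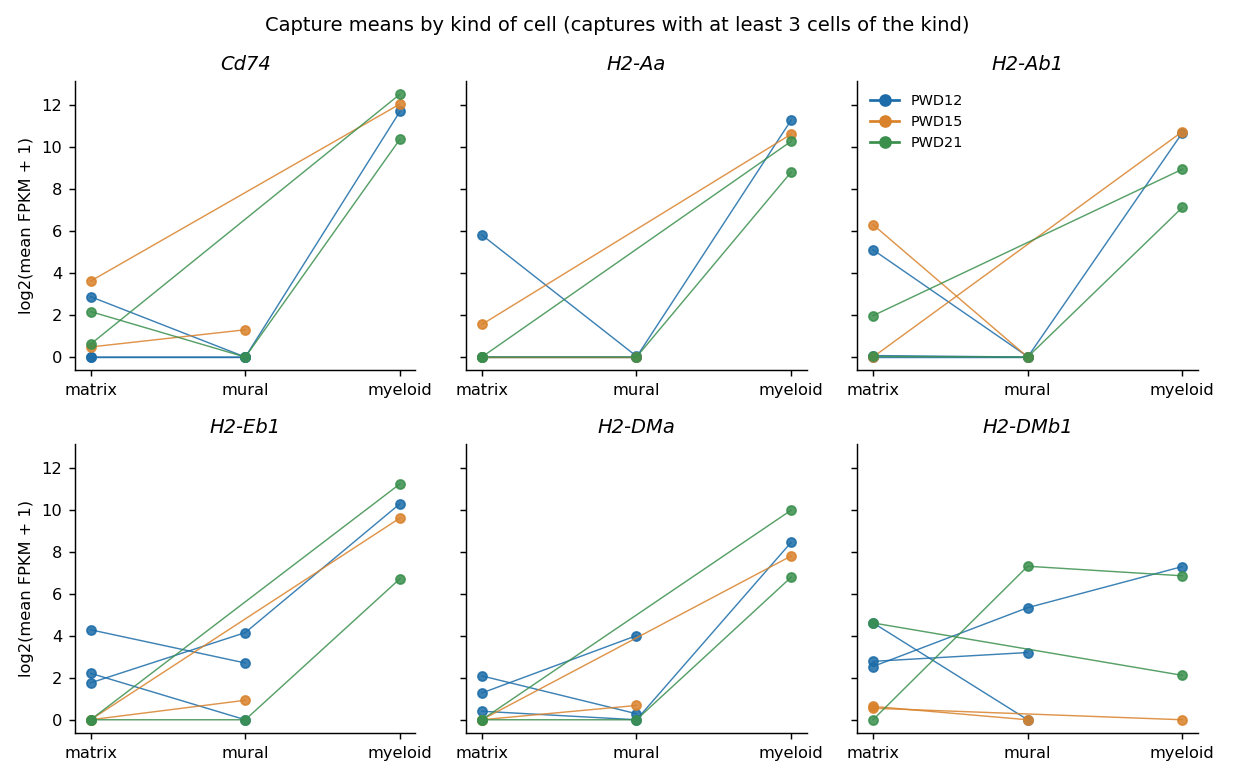
Points are log2(mean FPKM + 1) of 1 capture and kind of cell with at least 3 cells, coloured by day, and lines join the kinds of a capture. The 4 myeloid means of Cd74 lie between 10.39 and 12.54 and all 7 matrix means at 3.62 or below, while those of H2-DMb1 overlap.

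The myeloid cells differed strongly among themselves. Of the 26 cells 9 had a chain sum of at least 1000 FPKM, 9 had one above 0 and below 1000, and 8 had none of the 4 chain genes. The 8 cells without chain RNA were close to the others in depth and held myeloid RNA at high levels. Their median was 2076880 estimated fragments and 4836 genes, with Lyz2 (lysozyme) at a median of 15851 FPKM and the sum of the 12 markers at 30217 FPKM. In the 18 cells with chain RNA the medians were 2089810 fragments, 5102 genes, 8158 FPKM of Lyz2 and 32014 FPKM of the 12 markers.

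The cell with the most class II RNA came from PWD12 capture 2. It had 34954 FPKM of Cd74, 27109.6 of H2-Aa, 18231 of H2-Ab1, 13468 of H2-Eb1, 1104 of H2-DMa and 1088 of H2-DMb1. It also had the highest values of the costimulatory genes Cd86 (3162 FPKM) and Cd83 (2293 FPKM) and was the only myeloid cell with H2-Oa (206 FPKM), a subunit of the H2-O dimer that restrains H2-M. This cell stood apart in its markers. Lyz2 was at 1.49 FPKM, C1qb and Mrc1 were at 0, and 7 of the 13 myeloid markers were above 0, against 12 or 13 in each of the other 25 cells. Cd209a, a gene of dendritic cells derived from monocytes, was at 3041 FPKM there and at 0 in the other 25. Of the other dendritic cell markers Flt3, Zbtb46, Itgax, Clec10a, Batf3 and Ccr7 were at 0 in it. The sum of all 9 dendritic cell markers in it was 3040.78 FPKM and Cd209a alone was at 3040.58, so Xcr1 and Clec9a added little. Of the B cell markers Cd79a and Cd79b were at 0 in it, while Ighm was at 3.88 FPKM. Across the myeloid cells the B cell marker Cd79a was at 0, whereas Cd79b was found in 6 and Ighm, the heavy chain of IgM, in 8 of 26 cells, the latter at up to 3287 FPKM. Of the B cell markers 2, Cd79b and Ighm, were tested against matrix cells. Both reached the mean of 1 FPKM only through their myeloid values, so the filter favoured a higher myeloid mean. Ighm was called higher (difference 5.28, SE 1.24, limma adjusted p = 0.0354), and its call is a description. Of all genes tested 1.69% were called higher. The part of B cell RNA in the class II values was not tested.

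The next highest chain sums belonged to a cell of PWD15 capture 2 (30513 FPKM) and a cell of PWD21 capture 2 (27119 FPKM). Both had the macrophage genes Lyz2, at 14254 and 12071 FPKM, and C1qb, at 7560 and 8845 FPKM. So high class II RNA was found in cells with and without these genes. Of the 4 myeloid cells with Col1a1 of at least 1000 FPKM, 1 reached a chain sum of 1000 FPKM, with 1746 FPKM of Cd74 beside 10805 FPKM of Col1a1.

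**Figure D3:**
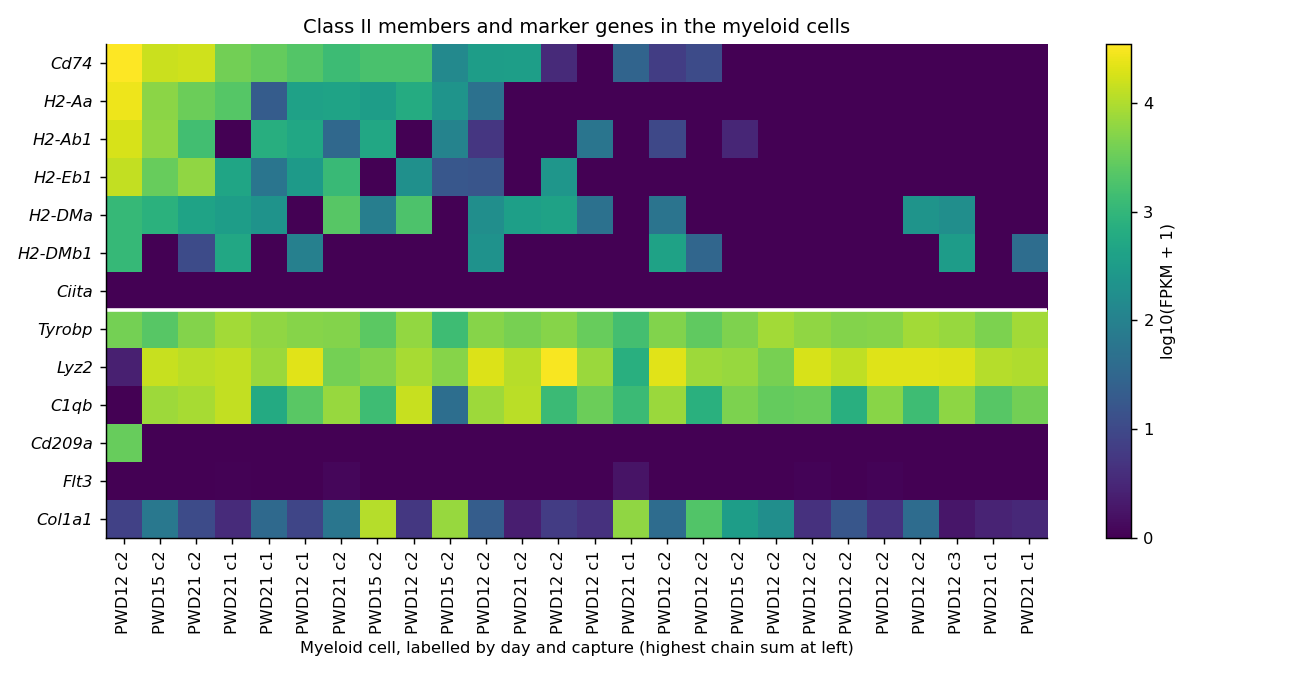
Columns are the 26 myeloid cells from the highest chain sum at the left to the lowest, labelled by day and capture (c), and rows are the members above the white line and marker genes below it. Colour is log10(FPKM + 1). Cd209a is seen in the first cell alone, which lacks C1qb, and the 8 cells at the right have no chain RNA but have Lyz2. Tyrobp chose the cells and is high in all by that rule.

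The chain genes were detected together. All 4 were above 0 in 8 of 26 myeloid cells, and 13 had at least 2 of them. Each of the 11 myeloid cells with H2-Aa and each of the 11 with H2-Eb1 also had Cd74, and 10 cells had H2-Aa and H2-Eb1 both. H2-Ab1 was less tied, as 2 of its 12 cells had no Cd74. Over the 26 myeloid cells, which share captures and differ in depth, Spearman's rho between pairs of chain genes ran from 0.58 (H2-Ab1 and H2-Eb1) to 0.89 (Cd74 and H2-Aa). It was 0.34 to 0.68 between a chain gene and H2-DMa, 0.15 to 0.30 between a chain gene and H2-DMb1, and 0.12 between H2-DMa and H2-DMb1.

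In the 8 cells with all 4 chain genes Cd74 exceeded H2-Ab1 and H2-Eb1 in 8 and H2-Aa in 7. The median ratio to Cd74 was 0.266 for H2-Aa, 0.239 for H2-Ab1 and 0.173 for H2-Eb1, but each ratio varied widely, for H2-Aa from 0.00687 to 1.64.

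**Figure D4:**
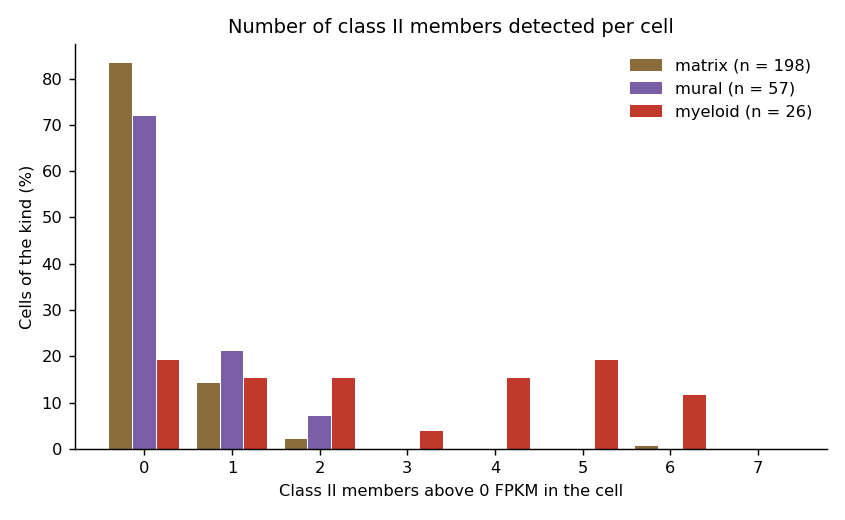
Bars give the percentage of the matrix, mural and myeloid cells (y axis) with a given number of the 7 members above 0 FPKM (x axis). Of the myeloid cells 12 of 26 had 4 or more members, and of the mural cells none had more than 2.

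Among matrix and mural cells a member was mostly detected alone. Of the 198 matrix cells 33 had any member, 28 of them with 1, 4 with 2 and 1 with 6. Of the 57 mural cells 16 had any member, 12 of them with 1 and 4 with 2. A chain gene was found in 18 of 198 matrix cells (9.09%) and in 7 of 57 mural cells (12.3%). The exception was a matrix cell of PWD12 capture 3, with 108 FPKM of Cd74, 948 of H2-Aa, 574 of H2-Ab1, 316 of H2-Eb1, 5.14 of H2-DMa and 91.1 of H2-DMb1. It had 6394 FPKM of Col1a1 together with 476 FPKM of Lyz2, 24.03 FPKM of the B cell gene Cd79a and 9.96 FPKM of Tyrobp.

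With cells of all captures pooled, RNA of other myeloid markers was found more often in matrix cells with chain RNA than in those without. Of the matrix cells with chain RNA, 6 came from PWD15 capture 1 and 3 from PWD15 capture 2. The shares were not compared within captures, and the part of day or capture in them was not tested. Without Tyrobp, which chose the cells, 12 myeloid markers remained, and at least 1 of them was above 0 in 11 of the 18 matrix cells with chain RNA (61.1%) and in 57 of the 180 without (31.7%). The summed markers had a median of 1.76 FPKM in the former and 0 in the latter, with highest values of 1141 and 1627 FPKM. Depth was close, with medians of 1557860 and 1449120 estimated fragments. In mural cells the shares were 2 of 7 (28.6%) and 13 of 50 (26%). Langerhans cell markers (Cd207 and Epcam) were at 0 in all 3 kinds. The part of RNA from other cells in the stromal values was not tested.

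The same test was run between mural and matrix cells of 5 captures. With limma 1.71% of 13823 genes were called (0.948% higher and 0.76% lower in mural cells), and of the 6 members tested none was, nor was any at an unadjusted p under 0.05. The differences, mural minus matrix on the log2 scale, ran from -2.30 for H2-Ab1 (SE 1.04, 95% interval -4.62 to 0.01, limma adjusted p = 0.350) to 1.06 for H2-DMb1 (SE 1.37, 95% interval -1.98 to 4.10, limma adjusted p = 0.767). For Cd74 the difference was -0.85 (95% interval -2.39 to 0.70). The intervals are wide, since most capture means rested on 1 or no positive cell. The H2-DMb1 value turned to -0.51 without PWD21 capture 1, where 1 mural cell had 1272 FPKM. That of H2-Eb1, -0.09, turned sign under several settings.

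Between days the matrix cells showed no called member. Of the 5 members tested in the 7 captures none passed, for PWD15 against PWD12 (0% of 13552 genes called by limma, 791 with an unadjusted p under 0.05) or PWD21 against PWD12 (0.00738%, 1 gene, with 968 under 0.05). H2-Eb1 was the member with the smallest p. It was found in matrix cells of all 3 PWD12 captures, in 3 of 31, 1 of 26 and 1 of 17 cells, and in none of the 124 matrix cells of the later captures. Its difference was -2.76 (SE 0.97, unadjusted p = 0.0167) at PWD15 and at PWD21, with limma adjusted p of 0.749 and 0.591. H2-DMa, too low to be tested, was likewise seen in matrix cells at PWD12 alone, with 4 of 74 matrix cells at PWD12, 0 of 72 at PWD15 and 0 of 52 at PWD21, where 0 cells allow shares of up to 4.17% and 5.77%. Cd74 was found in 1 of 74, 5 of 72 and 2 of 52 matrix cells, and its 3 mural cells were all from PWD15 capture 1.

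The share of matrix cells with a chain gene was 9.68%, 7.69% and 5.88% in the PWD12 captures, 12.0% and 13.6% in the PWD15 captures and 5.56% and 5.88% in the PWD21 captures. The means were 7.75% ± 1.90 (SD, n = 3), 12.8% ± 1.16 (n = 2) and 5.72% ± 0.231 (n = 2). Both PWD15 captures lay above the other 5, and the days differed in an exact permutation test (two-sided, 210 assignments of captures to days, p = 0.0286). The difference rests on few cells, 6 of 50 and 3 of 22 at PWD15. It was not past 0.05 with detection from 10 FPKM (means of 5.39%, 8.55% and 5.72%, exact permutation p = 0.0952) or with all deposited cells (6.67%, 14.6% and 8.04%, exact permutation p = 0.0857). With 1 capture left out the exact permutation p was 0.05 to 0.133, while the PWD15 mean stayed the highest, at 12.0% to 13.6%. Without a PWD12 capture the smallest p that this test can give is 0.0667, so those 3 cases could not pass. The PWD15 captures also had the lowest depth, with medians of 967374 and 948219 estimated fragments. The part of depth in this was not tested.

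**Figure D5:**
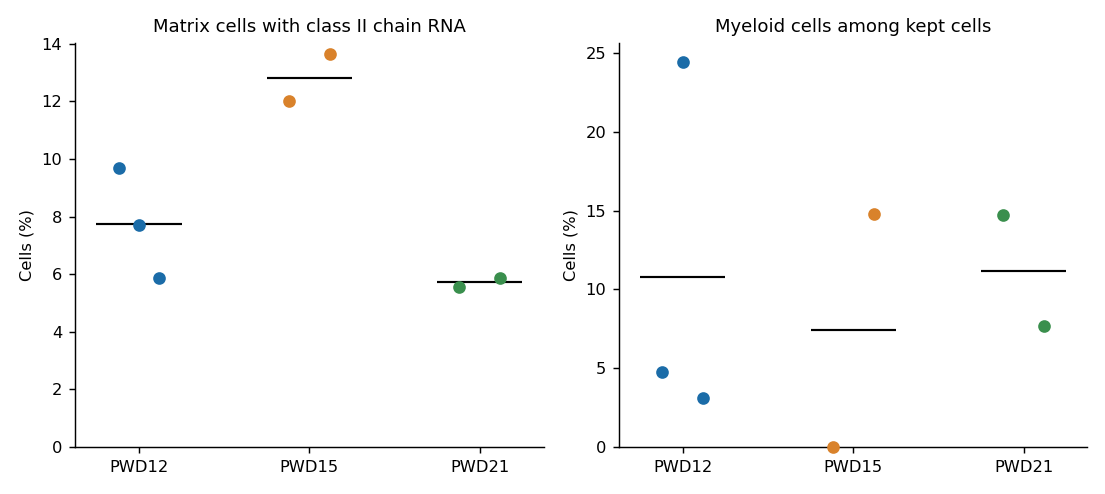
Points are captures and lines the means of a day. The left plot gives the percentage of matrix cells with at least 1 chain gene above 0 FPKM, with both PWD15 captures (12.0% and 13.6%) on top, and the right plot the percentage of kept cells that are myeloid, which ranges from 0% to 24.4%.

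The share of myeloid cells was 4.76%, 24.4% and 3.13% in the PWD12 captures, 0% and 14.8% at PWD15 and 14.7% and 7.69% at PWD21. The spread within days was as wide as that between them (exact permutation test, two-sided, p = 0.905). Chain RNA was found in 8 of 14 myeloid cells at PWD12, 4 of 4 at PWD15 and 6 of 8 at PWD21. A test over captures was not made for these, since at PWD12 and at PWD15 only 1 capture had at least 3 myeloid cells.

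Other genes of class II processing and costimulation were followed in a list of 14, of which 11 were tested between myeloid and matrix cells. Of these 4 were called higher and none lower, against 1.69% and 4.9% of all genes tested. Of the 11, 7 reached the mean of 1 FPKM only through their myeloid values, so the filter favoured a higher myeloid mean. Of these 7, 2 were called, Ctss and Cd83, and their calls are descriptions. Ctss, the cathepsin that trims the invariant chain in antigen-presenting cells, was detected in 26 of 26 myeloid, 9 of 198 matrix and 2 of 57 mural cells (difference 10.63, SE 0.95, limma adjusted p = 0.000174). It thus marked all myeloid cells, with or without chain RNA. Lgmn, the asparaginyl endopeptidase legumain, differed by 3.70 (SE 0.61, limma adjusted p = 0.00900) but was also found in 122 of 198 matrix cells. The costimulatory ligand Cd86 differed by 7.16 (SE 1.28, limma adjusted p = 0.0143) and Cd83, a surface protein that stabilizes class II molecules, by 6.41 (SE 1.28, limma adjusted p = 0.0235).

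The remaining genes of the list were not called. Ctsl, the related cathepsin L, was above 0 in 193 of 198 matrix cells and gave a difference of -0.65. Ifi30, the lysosomal thiol reductase, was above 0 in 82 of 198 matrix and 23 of 26 myeloid cells (difference 1.17, SE 1.09). The ubiquitin ligase Marchf1, which removes class II molecules from the surface, was found in 6 of 26 myeloid cells and in no matrix or mural cell (difference 3.46, SE 1.01, limma adjusted p = 0.0598).

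Of 13 regulators 12 were tested and 1 was called higher in myeloid cells, against 1.69% of all genes tested. This was Irf8, a factor of myeloid and dendritic lineages (difference 4.17, SE 0.88, limma adjusted p = 0.0263). It was found in 17 of 26 myeloid cells and in none of the 198 matrix cells. Like Spi1 and Rfx5, Irf8 was tested only through its myeloid values, so the filter favoured a difference and its call is a description. Spi1, which encodes the myeloid factor PU.1, was found in 18 of 26 myeloid and 1 of 198 matrix cells (difference 3.72, SE 1.06, limma adjusted p = 0.0566). The subunits of the X box factor RFX were found in all 3 kinds. Rfx5 and Rfxap were each found in 4 of 26 myeloid and 14 of 198 matrix cells, while Rfxank was found in 9 of 26 myeloid cells, at 1.41 FPKM or less, in 97 of 198 matrix cells and in 31 of 57 mural cells. None of the 3 was called between the kinds. The receptors of interferon gamma, a known inducer of Ciita, were widespread, with Ifngr1 in 26 of 26 myeloid and 135 of 198 matrix cells and Ifngr2 in 20 and 122. Irf1, a factor that interferon gamma induces, was found in 108 of 198 matrix and 16 of 26 myeloid cells and was not called between the kinds.

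MHC class I genes, which most nucleated cells express, differed in breadth. B2m, the class I light chain, was above 0 in every matrix, mural and myeloid cell. H2-K1 was found in 154, H2-D1 in 161 and Tapbp in 180 of 198 matrix cells. Tap1 was found in 38, Nlrc5 in 16 and Tap2 in 14 of them. Of the 7 class I genes tested 3 were called higher in myeloid than in matrix cells, against 1.69% of all genes tested. They were B2m (difference 2.05, SE 0.20), H2-D1 (3.34, SE 0.42) and H2-K1 (3.51, SE 0.57), with limma adjusted p from 0.000324 to 0.00891. In mural against matrix cells 2 were called higher, against 0.948% of all genes tested. They were B2m, by 1.14 (SE 0.15, limma adjusted p = 0.00404), and H2-D1, by 1.89 (SE 0.38, limma adjusted p = 0.0410). The chain genes differed between myeloid and matrix cells by 8.87 to 10.08, and the gap between the class I and class II differences was not tested.

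In the other comparisons no gene of the lists was called, apart from the class I genes above. Between mural and matrix cells 0 of 7 tested pathway genes and 0 of 11 tested regulators were called, against 1.71% of all genes tested. Between days in matrix cells 0 of 6 pathway genes, 0 of 10 regulators and 0 of 7 class I genes were called. Over all genes the shares between days were 0% for PWD15 and 0.00738% for PWD21. With shares this low, counts of 0 show nothing particular to these lists.

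By the rank correlation with the mean log2(FPKM + 1) of the 4 chain genes over the 26 myeloid cells, the most similar of 5409 genes found in at least 10 of these cells was Rplp0, a ribosomal protein gene (rho 0.77). It was followed by Nfkbid, an inhibitor family protein of NF-kappa-B (rho 0.71, found in 16 myeloid, 3 matrix and 2 mural cells). Next came Gm11808 (0.70), Ptp4a2 (0.65), Rps6-ps4 (0.64), Dmxl1 (0.62), Trmt112 (0.61), 9230114K14Rik (0.60), Cd72 (0.58) and Rps16-ps2 (0.58). Cd72, a lectin of B cells and macrophages, was found in 10 myeloid, 22 matrix and 3 mural cells. Rps6-ps4 and Rps16-ps2 are pseudogenes that can share reads with their parent genes and are uncertain. These are descriptions over cells that share captures.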

How the data were processed

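Full-length RNA of single cells was measured. Per the sources used here, the authors removed wells with doublets, aligned reads with Bowtie 1.0.0 to mm10, quantified GENCODE mouse release 13 with RSEM and deposited FPKM. Gene names and positions came from GENCODE release 21, and 224 identifiers had no record there. Fragments per cell were estimated from the steps between FPKM values of 9426 single-transcript genes of at least 1000 bp. No cell's values were identical to another's (0 of 367). Cells with at least 159000 fragments, at most 11000 genes and at most 15% mitochondrial FPKM were kept. Tests used limma 3.58.1 (R 4.3.3, variance trend, Benjamini-Hochberg adjustment, two-sided) on log2(mean FPKM + 1) per capture and kind with at least 3 cells, over genes whose mean reached 1 FPKM. The fits were checked on simulated normal values with large shifts, which does not cover sparse means or small differences. Exact permutations used Python 3.11.15. The named genes are the members, fixed lists of pathway, regulator, class I and marker genes, and the 10 genes most like the chain genes. The members and lists were chosen with earlier results of these data known. Single values of some list genes are not reported here.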

Additional observations from a re-analysis of the deposited data

Results flagged for a closer look

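In 19 sets of 4 to 7 capture means, 6 had a value far from the others by Dixon's test. A set where only 1 mean is above 0 is always flagged, so the usual rate of 1 in 20 by chance does not apply. The 6 values are given as log2(mean FPKM + 1). They include H2-Aa in matrix cells of PWD12 capture 3 (5.83, from the cell with 6 members). Also flagged were Cd74 in mural cells of PWD15 capture 1 (1.30) and H2-DMa in mural cells of PWD12 capture 1 (4.01). The others are near 0, namely H2-Aa (0.041) and H2-Ab1 (0.025) in mural cells of PWD12 capture 3 and Ciita in matrix cells of PWD21 capture 1 (0.0056). In 5 of these 6 sets at most 1 other capture was above 0, and for H2-DMa 2 other captures were.

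Among the cells that the filter left out, 4 of 7 myeloid cells had a chain gene, with a highest chain sum of 994 FPKM, and so had 4 of 27 matrix cells, with a highest sum of 1421 FPKM. Of 10 mural cells left out 2 had a chain gene, with a highest sum of 1790 FPKM.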

How the results depend on the processing

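The 5 called members were called in each of the 4 fits that left out 1 capture (5 to 5), under 11 of 12 other settings, and 1 of them without the filter on low values. All but the last kept this filter. In the main fit H2-Aa, H2-Ab1, H2-Eb1 and H2-DMa passed it only through their myeloid values, so their repeated calls are no independent check. No mural or day comparison called a member under any setting, without captures included (0 to 0). The share of matrix cells with chain RNA gave an exact permutation p of 0.0857 with all deposited cells, 0.114 with stricter kind limits (means of 6.64%, 13.2% and 5.81%), 0.0667 and 0.0952 with detection from 1 and 10 FPKM, and 0.05 to 0.133 with a capture left out, where 3 of 7 cases could not go below 0.0667. The PWD15 mean was the highest in all of these. The myeloid share gave 0.6 to 0.983 with a capture left out.

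The 861 genes called between myeloid and matrix cells became 108 to 340 with a capture left out (lowest without PWD12 capture 2), 485 with all deposited cells, 1870 with at least 2 cells, 1365 with cells scaled to 1000000, 31 without the filter on low values, 183 with a pseudocount of 10 and 3008 with at least 2 cells and without the myeloid cells with Col1a1 of at least 1000 FPKM together, an alternative added after seeing the data. The 236 called between mural and matrix cells became 102 to 228 with a capture left out, 657 for means of log2 values, 19 without the filter and 90 without the variance trend. Between days, means of log2 values called 28 (PWD15) and 70 (PWD21) genes against 0 and 1, and the other settings 0 to 2.

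Uncalled differences that changed sign were those of H2-Eb1 between mural and matrix cells (1.14 with all deposited cells, 0.24 for means of log2 values, 0.089 with stricter limits, -0.72 to 0.44 with a capture left out) and H2-DMb1 (-0.51 to 2.48). For PWD15 against PWD12 they were Cd74 (-0.48 to 2.66), H2-Ab1 (-1.73 to 4.59) and H2-Aa (1.22 with all deposited cells). For PWD21 they were Cd74 (-0.35 to 1.39), H2-Ab1 (-1.70 to 0.97) and H2-DMb1 (-3.32 to 1.30). The cause of these changes was not tested. Deviations of captures with the same number had correlations of -0.0068 to 0.025. The 2 captures of PWD15, and those of PWD21, deviate as mirror images, so these correlations cannot decide whether the number pairs captures. With the capture number as replicate block, H2-Aa at PWD15 turned to 0.78 and H2-Ab1 at PWD21 to 0.97, and no member was called (0). Without the capture as replicate block, 5 members were still called in myeloid cells. Most positives among the stromal values are single cells, and the part of depth in these values and in those of Ciita was not tested.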
